A study of Homo sapiens with 6 samples.

Results

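The small subunit of the human ribosome, the 40S subunit, is built in the nucleolus on a large particle called the small subunit processome, and is then trimmed and released into the cytoplasm. The transcripts of 47 named assembly factors of this route were examined in A375 cells, an established human melanoma line with an activated BRAF kinase. The factors were listed by gene symbol, with earlier results of these data known. All 47 are among the 25662 genes of the deposited values. All 47 also passed the filter for testing, a mean of at least 1 TPM (a relative transcript abundance corrected for gene length and scaled to one total per library) over the 6 libraries. The control group consists of 3 libraries of cells given DMSO, the solvent, and the treated group of 3 libraries of cells kept 24 hours in 1 µM BMH-21. This compound intercalates into DNA and is known as an inhibitor of RNA polymerase I. The titles put the controls at time 0, so how long these cells had been with the solvent is not settled here. Nothing in the sources used here gives a genetic change other than those the line carries. All libraries are of a single line in culture, and the submitters call them biological replicates. The comparison asks how the transcripts of the assembly machinery differ after BMH-21.

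RNA polymerase I makes a long precursor that holds the 18S, 5.8S and 28S ribosomal RNAs. The processome forms on the 5′ part of this precursor while it is being made. The UtpA complex binds the leading spacer first, the UtpB complex and the U3 small nucleolar ribonucleoprotein follow, and helicases, enzymes and scaffold proteins then fold, modify and cut the RNA. A smaller set of factors stays with the later pre-40S particle until the last cut in the cytoplasm. Most of these roles were worked out in budding yeast, whose factors gave many of the human genes their names.

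In both groups the melanoma and melanocyte genes chosen for checking the line were uneven. Of 11 such genes, summed levels were between 2337 and 2565 TPM under DMSO and between 2458 and 2470 TPM under BMH-21. SOX10, S100A1, S100B, MIA, CSPG4 and PRAME were expressed in every library, MLANA was listed at 0 in all 6, and TYR and DCT were at or near 0. MITF and PMEL were low, with means of 1.42 and 0.809 TPM under DMSO and 1.29 and 1.70 TPM under BMH-21. Of 6 markers of other cell types, 5 were analysed, and they summed to at most 5.61 TPM in any library. The 5 proliferation markers summed to between 436 and 441 TPM under DMSO and between 108 and 127 TPM under BMH-21. Their part in the results below was not tested, and in bulk RNA a shift in the share of dividing cells and a shift in RNA per cell cannot be told apart. Read totals are not kept in TPM, so the depth of the libraries is unknown.

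After BMH-21, 7 of the 47 assembly factors rose, 5 fell and 35 were not called. RRP7A, RRP9, EMG1, TBL3 and IMP4 fell, and WDR43, UTP3, FCF1, UTP20, NOL6, NAT10 and PNO1 rose. The steepest fall was that of RRP7A, from 94.1 ± 15.9 to 35.7 ± 3.39 TPM (SD, n = 3 each), and the largest rise among called factors was that of WDR43, from 9.96 ± 1.40 to 17.0 ± 3.09 TPM. Calls were made with limma at a Benjamini-Hochberg adjusted p under 0.05 over 12481 genes, on the log2(TPM + 1) scale, which understates the change of low genes. Over all genes tested, 23.3% rose and 12.9% fell. The members' 7 higher calls were a smaller share than that background and their 5 lower calls a similar one, so the counts as such do not set these factors apart. Their median log2 change was 0.09, against 0.19 over all genes tested, and 32 of the 47 (68.1%) had a positive change, against 66.0% of all genes tested. With median-of-ratios scaling both medians shifted, to -0.07 for the factors and to 0.02 for all genes, with 4 factors higher and 9 lower against 15.1% and 19.1% of genes. Without BMH-21 replicate 1, 2 factors rose and 4 fell, against 13.4% and 9.05% of genes, and without BMH-21 replicate 3 the counts were the same, against 14.0% and 9.3%. Without both libraries numbered 2, 14 rose and 6 fell, against 28.8% and 17.6%. Log2 changes below are on the deposited scale, where the median of all genes tested was 0.19. Calls and adjusted p on that scale are against no change, not against 0.19, and the cause of that median was not tested.

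The summed level of the 47 genes was 1845, 1872 and 1982 TPM in control replicates 1 to 3 and 1822, 1848 and 1859 TPM in BMH-21 replicates 1 to 3. The groups overlapped, with means of 1899 ± 72.8 and 1843 ± 19.0 TPM (SD, n = 3 each). Members spanned a wide range of levels. RIOK2 was the lowest at 1.22 ± 0.222 TPM under DMSO and IMP4 the highest at 149 ± 10.96 TPM. The BMH-21 libraries lay entirely above the controls for 12 factors, where the background over all genes tested is 35.0%, and entirely below for 7, where it is 17.3%.

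**Figure D1:**
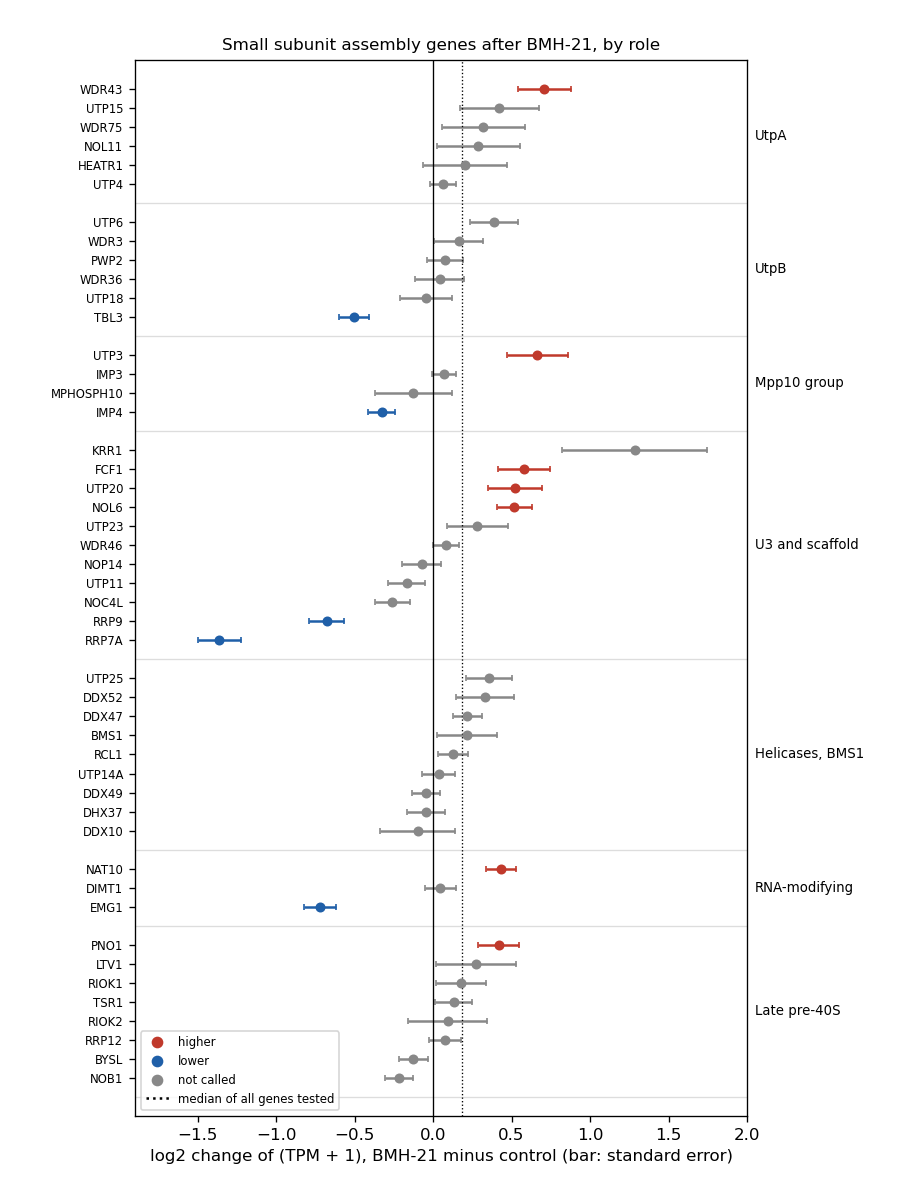
Log2 change of (TPM + 1), BMH-21 minus control, of the 47 factors by role, with standard error bars and the median of all genes tested (0.19) as a dotted line. Higher calls (7, red) and lower calls (5, blue) are spread over the groups. The 9 helicase, GTPase and cofactor genes hold none, where 36.2% of all genes tested were called in either direction.

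Stretches of promoter are shown for 4 called factors that differ in direction: the sharpest fall, the fall among the RNA-modifying enzymes, and a pair of rises. Each gives the 150 bases before the RefSeq transcript start (GRCh38.p14), 5′ to 3′ on the strand of the gene. Capitals mark any of 5 motifs searched on both strands: the E-box CACGTG, the core CCGGAAG bound by ETS factors, the CCAAT box, the palindrome TCGCGA and the cell cycle element TTTGAA.
RRP7A, chr22:42519797-42519946, minus strand: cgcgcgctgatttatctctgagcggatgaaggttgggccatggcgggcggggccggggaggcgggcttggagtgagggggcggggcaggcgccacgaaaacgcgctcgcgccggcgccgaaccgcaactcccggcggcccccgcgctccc
EMG1, chr12:6970763-6970912, plus strand: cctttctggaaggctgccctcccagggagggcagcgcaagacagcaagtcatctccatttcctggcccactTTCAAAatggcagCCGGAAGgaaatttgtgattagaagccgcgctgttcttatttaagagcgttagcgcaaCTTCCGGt
NOL6, chr9:33473925-33474074, minus strand: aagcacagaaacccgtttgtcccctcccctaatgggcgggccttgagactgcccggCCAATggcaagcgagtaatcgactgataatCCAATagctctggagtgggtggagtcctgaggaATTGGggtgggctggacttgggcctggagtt
WDR43, chr2:28894517-28894666, plus strand: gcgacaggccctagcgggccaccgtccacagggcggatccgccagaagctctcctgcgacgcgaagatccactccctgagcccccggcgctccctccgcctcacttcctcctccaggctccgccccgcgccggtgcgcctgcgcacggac
The RRP7A and WDR43 stretches hold none of these letters in this window. EMG1 shows CCGGAAG on either strand and 1 match to TTTGAA on the opposite strand, and NOL6 shows 3 CCAAT matches, the last of them on the opposite strand.

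The motifs were also counted over the whole window held for each gene, 250 bases before to 50 bases after the start, which was found for 42 of the 47 factors. CACGTG, the E-box that MYC and its relatives bind, was present in 18 of 42 (42.9%), against 10.3% of 9779 genes tested that have a promoter sequence and 7.3% of all 35116 windows. CCGGAAG was present in 16 of 42 (38.1%), against 20.1% of the tested genes and 10.3% of all windows. TCGCGA was in 8 (19.0%, against 6.0% and 3.1%), CCAAT in 15 (35.7%, against 37.5% and 34.6%) and TTTGAA in 5 (11.9%, against 9.1% and 15.2%). No match overlapped a match of another motif in any of the 42 windows. Each factor was given the RefSeq window nearest its GENCODE gene start. For the 9779 tested genes the first window listed for each symbol was used, so the shares were not measured in the same way. They are descriptions, without a test, and a match is not a shown binding site.

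E-boxes were held by 5 of the 7 factors that rose and by 2 of the 5 that fell, so the same letters stood near the starts of genes of either direction. Windows of 26 bases around them are given with CACGTG in capitals.
WDR43, chr2:28894660-28894685, plus strand: cacggacgaaCACGTGgctgcagcgg
NOL6, chr9:33473896-33473921, minus strand: catttccgccCACGTGggaagctatg
UTP20, chr12:101280085-101280110, plus strand: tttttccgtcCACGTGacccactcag
NAT10, chr11:34105604-34105629, plus strand: tgcgcttgcgCACGTGctgtctacca
PNO1, chr2:68157887-68157912, plus strand: tgcagctgcgCACGTGtttcagccgg
RRP9, chr3:51941894-51941919, minus strand: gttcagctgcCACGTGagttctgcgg
IMP4, chr2:130342684-130342709, plus strand: ggtcctaagtCACGTGtgacattctg
IMP4, chr2:130342902-130342927, plus strand: ctcccggaccCACGTGgaagcggcac
IMP4 is the only called factor with a pair of E-boxes. Apart from the upstream copy of IMP4, at position -203, these matches begin between 15 bases before and 16 bases after the start.

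UtpA, the complex that binds the precursor first and in human cells is also linked to its transcription, had 1 of 6 members called. The share called in either direction over all genes tested was 36.2%. WDR43, a beta-propeller subunit, was at 11.6, 8.97 and 9.34 TPM in control replicates 1 to 3 and moved to 18.2, 13.5 and 19.3 TPM in BMH-21 replicates 1 to 3. Each BMH-21 library was above each control, and replicate 2 was the lowest of the treated libraries. WDR43 rose with a log2 change of 0.71 ± 0.17 (limma adjusted p = 0.0133). Without BMH-21 replicate 1 or 3 the call was lost (adjusted p = 0.0612 and 0.0590). UTP4, known as cirhin, was the most abundant UtpA subunit, at 94.5, 101 and 106 TPM under DMSO and 101, 109 and 105 TPM under BMH-21. Its groups overlapped (log2 change 0.06 ± 0.08, adjusted p = 0.577).

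The other 4 UtpA subunits had low levels, and all of them but HEATR1 had treated libraries less even than the controls. UTP15 was at 1.79, 2.55 and 2.93 TPM under DMSO and 3.56, 2.29 and 5.21 TPM after BMH-21 (adjusted p = 0.222). NOL11 was at 5.42, 6.38 and 6.93 and 8.93, 4.74 and 11.00 TPM in the same order (adjusted p = 0.419), WDR75 at 4.15, 6.41 and 4.71 and 6.11, 4.47 and 9.91 TPM (adjusted p = 0.370). For all 3, BMH-21 replicate 2 was below the highest control while replicate 3 was above every control. Without both libraries numbered 2, UTP15, NOL11 and WDR75 were called higher (limma adjusted p = 0.0487, 0.0211 and 0.0362), where 28.8% of genes were. Without BMH-21 replicate 2 alone NOL11 was called (adjusted p = 0.0381), and UTP15 and WDR75 were not (0.0589 and 0.122). HEATR1, the largest UtpA scaffold, was at 7.84 ± 3.04 and 8.83 ± 1.70 TPM (adjusted p = 0.580). The median log2 change of the 6 subunits was 0.30, and all 6 changes were positive on the deposited scale, as were 66.0% of those of all genes tested. UTP4 turned negative with median-of-ratios scaling (-0.13) and with GC and length trends removed (-0.20), and HEATR1 without control replicate 2 (-0.08) and with those trends removed (-0.09). In controls the TPM of the highest subunit stood 41.5 times above that of the lowest. Levels of different genes also varied with GC content, as given below, and no protein values were used here.

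In UtpB, a second early complex of beta-propeller and repeat proteins, 1 of 6 members fell, where 12.9% of all genes tested fell. TBL3, also known as UTP13, was at 57.1, 57.3 and 66.0 TPM under DMSO and at 41.9, 41.9 and 42.0 TPM under BMH-21. The treated libraries lie within 1 TPM of each other and below the lowest control. The log2 change was -0.51 ± 0.09 (limma adjusted p = 0.00462). TBL3 shares 2133 exonic bases with NOXO1 on the opposite strand, and NOXO1 was at 0.336 ± 0.132 TPM under DMSO and 1.48 ± 0.612 TPM under BMH-21. Of the 47 factors, 26 share exonic bases with another annotated gene, 24 of them on the opposite strand, and the sources used here do not say whether strand was used in quantification. TBL3 was also the UtpB member with the highest level in both groups. UTP6, a repeat-protein subunit, had the largest positive change of the complex, with 19.6, 28.9 and 24.2 TPM under DMSO and 31.2, 28.9 and 35.1 TPM under BMH-21. UTP6 libraries under BMH-21 lay above its controls by a margin of less than 0.1 TPM, and UTP6 was not called (log2 change 0.39 ± 0.15, adjusted p = 0.0807). PWP2, WDR3, WDR36 and UTP18 were not called, with log2 changes from -0.04 to 0.16 and adjusted p from 0.434 to 0.852.

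The Mpp10 group, which helps U3 RNA pair with the precursor, moved both ways. IMP4 fell, from 138, 149 and 160.1 TPM in the controls to 113, 122 and 119 TPM in the treated libraries (log2 change -0.33 ± 0.09, limma adjusted p = 0.0206). The groups did not overlap. IMP4 was called in 12 of 17 alternatives. Among the others, it lost the call without control replicate 3 (adjusted p = 0.0610), BMH-21 replicate 1 (0.103) or BMH-21 replicate 3 (0.0729), and without the variance trend (0.0529). UTP3, also named SAS10, rose, from 9.64, 6.89 and 10.3 to 15.5, 11.7 and 17.1 TPM (log2 change 0.66 ± 0.19, adjusted p = 0.0296). The lowest treated value of UTP3 was close to its highest control value, and the call was lost on leaving out any library but control 3 and BMH-21 2 (adjusted p between 0.0503 and 0.108). IMP3, the small partner of IMP4 on U3 RNA, was at 126, 128 and 130.2 TPM under DMSO and 132, 137 and 134 TPM under BMH-21. These groups did not overlap either, yet IMP3 was not called (log2 change 0.07 ± 0.07, adjusted p = 0.482). MPHOSPH10, the human MPP10, was low, at 3.39 ± 0.998 and 3.05 ± 1.01 TPM (adjusted p = 0.705).

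The 11 proteins grouped here as U3 and scaffold factors held 5 of the 12 calls, 3 higher and 2 lower. Over all genes tested, 36.2% were called in either direction, and the count for so small a group is given as a description. RRP7A, which in yeast works with the counterpart of NOL6 in the UtpC complex, lies on chromosome 22, 42509968 to 42519802 (GENCODE 29, GRCh38). RRP7A was at 77.6, 95.1 and 109 TPM in control replicates 1 to 3 and moved to 39.6, 33.5 and 34.0 TPM in BMH-21 replicates 1 to 3. Even the highest treated library was far below the lowest control, a ratio of control to BMH-21 means of 2.64. The log2 change was -1.36 ± 0.14 (limma adjusted p = 0.000221). RRP7BP, a pseudogene with a similar sequence, was lower too, at 12.1 ± 1.56 TPM under DMSO and 7.32 ± 1.16 TPM under BMH-21 (adjusted p = 0.0153). Salmon divides reads among such copies, so the split between both is uncertain.

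NOL6, the partner of RRP7A in that complex and the human counterpart of yeast Utp22, went the other way. NOL6 (chromosome 9, 33461441 to 33473930) was at 84.0, 67.3 and 85.1 TPM under DMSO and 110.1, 121 and 108 TPM under BMH-21. All treated libraries were above all controls, and control replicate 2 was the lowest of the 6. The rise was 0.52 ± 0.11 on the log2 scale (limma adjusted p = 0.00899). Of the 7 rises, NOL6 was the only one called in all 17 alternative settings tried, among them both scaling alternatives, each library left out and GC trends removed.

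RRP9, the beta-propeller protein specific to the U3 particle, was at 64.5, 77.7 and 83.6 TPM under DMSO and 47.2, 47.0 and 44.9 TPM under BMH-21. The treated libraries were closely grouped below the lowest control (log2 change -0.68 ± 0.11, limma adjusted p = 0.00266). FCF1, a PIN-domain nuclease known in yeast as Utp24, cuts the precursor at the 5′ end of 18S. FCF1 rose from 13.7, 10.2 and 14.6 to 22.1, 16.5 and 20.2 TPM (log2 change 0.58 ± 0.17, adjusted p = 0.0290). Without BMH-21 replicate 1 or 3 the call of FCF1 was lost (adjusted p = 0.118 and 0.0914). UTP20, a very large repeat protein, rose from 1.96, 2.98 and 2.36 to 3.43, 3.74 and 4.56 TPM (log2 change 0.52 ± 0.17, adjusted p = 0.0481). The UTP20 call was the weakest of the 12 and held in 3 of 16 alternatives. It was lost without any single library except control replicate 2 (adjusted p from 0.0779 to 0.170).

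KRR1, a KH-domain protein, had the largest positive change of all 47 and was not called. KRR1 was at 3.26, 6.93 and 5.35 TPM under DMSO and 17.9, 5.64 and 23.7 TPM under BMH-21. Replicates 1 and 3 stood well above the controls, while BMH-21 replicate 2 lay inside the control range. The log2 change was 1.28 ± 0.46 (limma adjusted p = 0.0613). With BMH-21 replicate 2 left out it was 1.85 and passed the test (adjusted p = 0.00223). With any other single library left out KRR1 was not called, and the change ran from 0.90 without BMH-21 replicate 3 (adjusted p = 0.174) to 1.49 without control replicate 2 (adjusted p = 0.0678). The KRR1 gene shares 1516 exonic bases with GLIPR1 on the opposite strand. GLIPR1 itself was at 0.978 ± 0.398 TPM under DMSO and 1.28 ± 0.501 TPM under BMH-21.

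WDR46, the scaffold factor with the highest mean over all libraries, was at 96.3, 106 and 108 TPM under DMSO and 108, 113 and 107 TPM under BMH-21. Its groups overlapped (log2 change 0.08 ± 0.08, adjusted p = 0.454). NOP14 and its partner NOC4L were not called, at log2 changes of -0.07 and -0.26 (adjusted p = 0.663 and 0.0995). UTP11, a small U3-associated protein, and UTP23, a relative of FCF1, were not called either (-0.17 and 0.28, adjusted p = 0.297 and 0.284). Median-of-ratios scaling called NOC4L and UTP11 lower (adjusted p = 0.0176 and 0.0361).

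**Figure D2:**
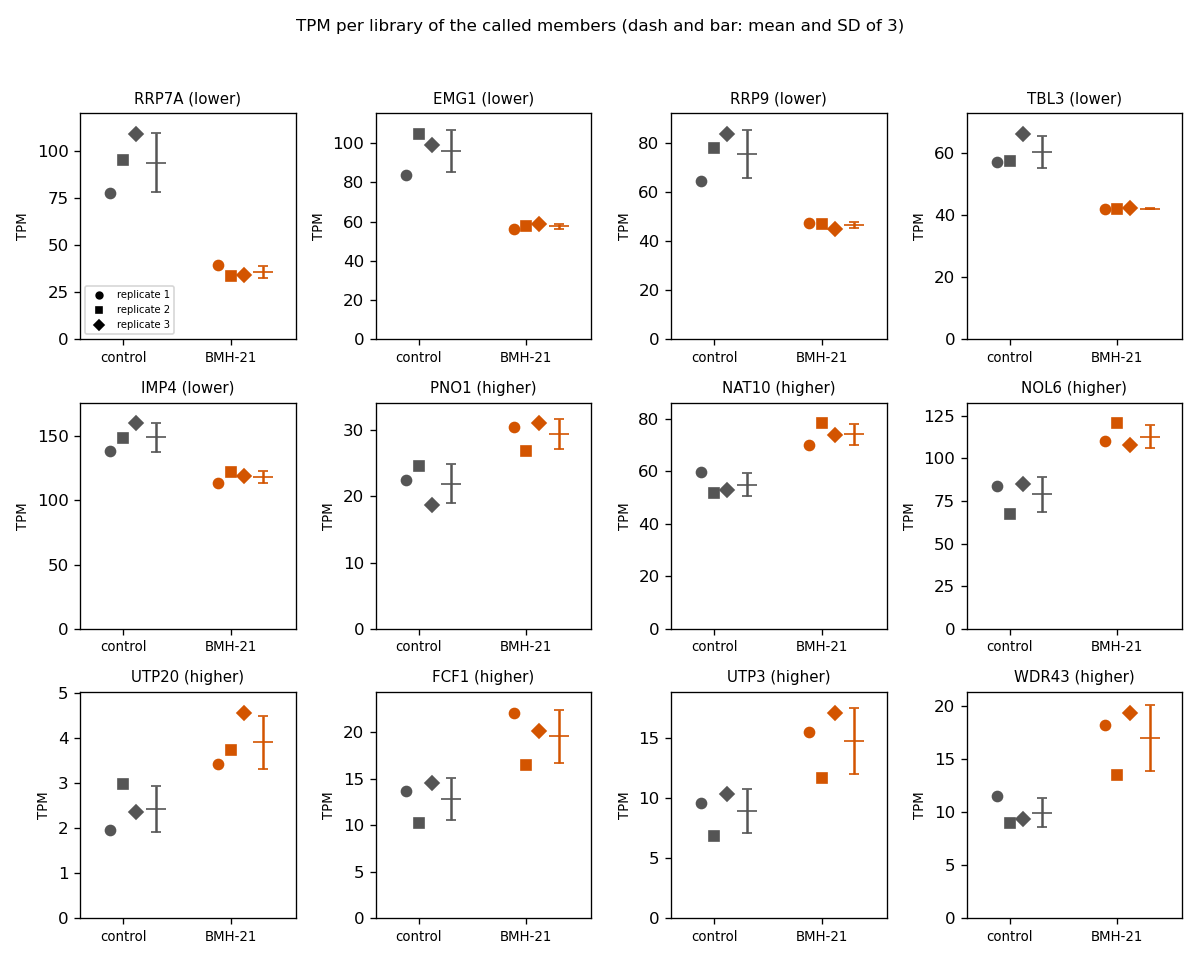
TPM per library (symbols by replicate number) of the 12 called factors, with mean and SD of the 3 libraries of each group at the side of each cluster; each axis starts at 0. RRP7A, EMG1, RRP9 and TBL3 have tight treated libraries well below the controls, while replicate 2 is the lowest treated library of PNO1, FCF1, UTP3 and WDR43.

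None of the 9 helicase, GTPase and cofactor genes was called, where 36.2% of all genes tested were called in either direction. For so small a group this count is given as a description. Without the variance trend UTP25 was called higher (limma adjusted p = 0.0453). By unadjusted p, UTP25 and DDX47 of this group were under 0.05. UTP25, a helicase-like protein without the usual ATPase residues, had the largest positive change, from 2.52, 2.28 and 2.85 to 3.71, 3.28 and 3.63 TPM. Its groups did not overlap (log2 change 0.36 ± 0.15, limma adjusted p = 0.0890). DDX10, the human Dbp4, had the most negative change, at 3.42, 1.65 and 3.33 TPM under DMSO and 2.93, 1.88 and 2.65 TPM under BMH-21. Those groups overlapped widely (log2 change -0.10 ± 0.24, adjusted p = 0.760). DDX49, a DEAD-box protein and the most abundant of this group, was at 134, 149 and 161 and 141, 149 and 139 TPM (adjusted p = 0.723).

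Also among these enzymes, DHX37, which strips U3 from the precursor, and its activator UTP14A were near level, at log2 changes of -0.05 ± 0.12 and 0.03 ± 0.10. DDX47 was at 54.7 ± 3.83 and 63.8 ± 2.72 TPM (adjusted p = 0.0988), and DDX52 at 5.08 ± 0.801 and 6.68 ± 1.35 TPM (adjusted p = 0.193). The GTPase BMS1 was at 3.07 ± 0.967 and 3.64 ± 0.288 TPM (adjusted p = 0.403). Its binding partner RCL1 was at 27.8 ± 0.425 and 30.4 ± 1.44 TPM (adjusted p = 0.326). BMS1 has 13 pseudogene entries in the deposited values, so its level is uncertain.

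Of the 3 enzymes that modify 18S ribosomal RNA, 1 fell, 1 rose and 1 was not called. Of all genes tested, 12.9% fell and 23.3% rose. EMG1, a pseudouridine methyltransferase, lies on chromosome 12, 6970893 to 6997428. EMG1 was at 83.9, 105 and 98.8 TPM under DMSO and 56.3, 57.7 and 58.6 TPM under BMH-21. The treated libraries were nearly equal and below every control (log2 change -0.72 ± 0.10, limma adjusted p = 0.00130). EMG1 shares 3100 exonic bases with LPCAT3 on the opposite strand. LPCAT3 was at 44.1 ± 3.98 TPM under DMSO and 51.9 ± 2.86 TPM under BMH-21 and was not called (adjusted p = 0.109).

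NAT10, the cytidine acetyltransferase, was at 59.8, 51.6 and 53.0 TPM under DMSO and 70.2, 78.3 and 73.8 TPM under BMH-21. Every treated library was above every control (log2 change 0.43 ± 0.10, limma adjusted p = 0.0101), and the call was lost with median-of-ratios scaling (log2 change 0.24, adjusted p = 0.112). NAT10 was called in 14 of the 17 alternatives. DIMT1, the adenosine dimethyltransferase, was at 42.3 ± 2.98 and 43.7 ± 2.67 TPM (adjusted p = 0.739).

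Among the 8 late factors of the pre-40S particle, PNO1 rose and the others were not called, where 23.3% of all genes tested rose. PNO1, a KH-domain protein that shields the last cleavage site, was at 22.5, 24.5 and 18.7 TPM under DMSO and 30.4, 26.9 and 31.0 TPM under BMH-21. The groups did not overlap (log2 change 0.42 ± 0.13, limma adjusted p = 0.0369). PNO1 was called in 6 of 17 alternatives, and not with either scaling alternative (adjusted p = 0.290 for median-of-ratios and 0.161 with quantile normalization). Leaving out either of control 1 and 3, or of BMH-21 1 and 3, also ended it (adjusted p between 0.0621 and 0.130). NOB1, the nuclease that makes that cut and the partner of PNO1, was the most abundant late factor. NOB1 was at 115, 121 and 105 TPM under DMSO and 97.5, 103 and 91.7 TPM under BMH-21, with the treated libraries below the controls. NOB1 was not called (log2 change -0.22 ± 0.09, adjusted p = 0.0990), although median-of-ratios scaling called it lower (adjusted p = 0.0387).

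The other 6 late factors were not called. BYSL, the human Enp1, was at 49.1 ± 3.14 and 44.9 ± 2.18 TPM (adjusted p = 0.322). Median-of-ratios scaling called BYSL lower (log2 change -0.32, limma adjusted p = 0.0376). RRP12, an export factor, was at 87.6 ± 8.12 and 92.2 ± 6.16 TPM, and TSR1, a GTPase-like protein without GTPase activity, was at 42.2 ± 5.57 and 46.1 ± 2.29 TPM. LTV1, which dissociates on phosphorylation, was at 3.08, 4.72 and 4.56 TPM under DMSO and 5.83, 3.24 and 6.90 TPM under BMH-21 (adjusted p = 0.427). RIOK1, an atypical kinase, was at 6.50 ± 0.861 and 7.48 ± 1.02 TPM. The related kinase RIOK2, at 0.974, 1.27 and 1.41 and 2.08, 0.588 and 1.68 TPM, had both its lowest and its highest value in treated libraries.

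Among the treated libraries, which one was high or low for a factor varied with its base composition. GC content was taken from the longest coding transcript of each gene in GENCODE 29 and ran from 36.0% for KRR1 to 64.8% for NOC4L. Of 25 factors under 45% GC, BMH-21 replicate 2 was the lowest of the 3 treated libraries in 23. Of 18 factors over 50% GC, it was the highest in 14. Over all genes tested the same held in 72.9% of 3983 genes under 45% GC and in 69.1% of 6188 genes over 50% GC. The signed deviation of each library from the mean of its group, on the log2(TPM + 1) scale, was set against GC content. Across the 47 factors, Spearman's rho was -0.45, 0.80 and -0.84 for BMH-21 replicates 1 to 3. For control replicates 1 to 3 it was -0.06, -0.18 and 0.23. The deviations of a gene cancel out within a group, so opposite signs between libraries of a group are partly built in. These values are over genes that share libraries and are given as a description. Over all tested genes the values were -0.29, 0.58 and -0.56 for BMH-21 replicates 1 to 3 and 0.13, -0.25 and 0.22 for control replicates 1 to 3.

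**Figure D3:**
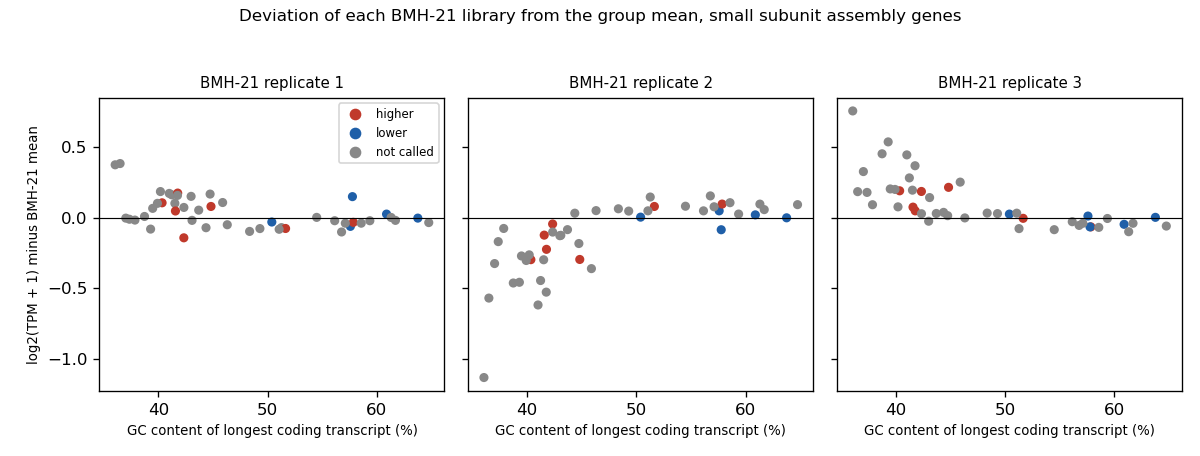
Deviation of log2(TPM + 1) from the BMH-21 mean against the GC content of the longest coding transcript, for the 47 factors in each BMH-21 library, coloured by call. In replicate 2 the factors under 45% GC lie mostly below 0, with KRR1 the lowest, and in replicate 3 mostly above 0.

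Levels and calls were divided by GC content as well. Factors under 45% GC had a median of 6.24 TPM under DMSO, and those over 50% GC a median of 77.0 TPM. Mean TPM and GC content correlated at 0.76 over the 47 factors and at 0.28 over all tested genes (Spearman's rho). Among the 25 factors under 45% GC, 5 rose and none fell. Among the 18 over 50% GC, 2 rose and 5 fell, and the 4 between were not called. Over all tested genes under 45% GC, 20.5% rose and 7.63% fell, and over 50% GC 23.4% rose and 17.3% fell. The log2 change correlated with GC content at -0.51 over the factors and at -0.13 over all tested genes. The part of GC content in the calls was not tested in the fit on deposited TPM.

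With the GC and length trends of each library removed, an alternative chosen after seeing the data, 5 factors rose and 9 fell, against 19.7% and 22.0% of genes. The 5 falls named above were all among the 9, joined by NOC4L, NOP14, UTP11 and NOB1, and the rises of UTP20 and PNO1 were lost (adjusted p = 0.407 and 0.188). RRP7A, EMG1, RRP9, TBL3 and NOL6 were the 5 factors called in all 17 alternatives. The lowest size across those settings was a log2 change of -1.25 for RRP7A, -0.65 for EMG1, -0.60 for RRP9, -0.44 for TBL3 and 0.32 for NOL6.

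**Figure D4:**
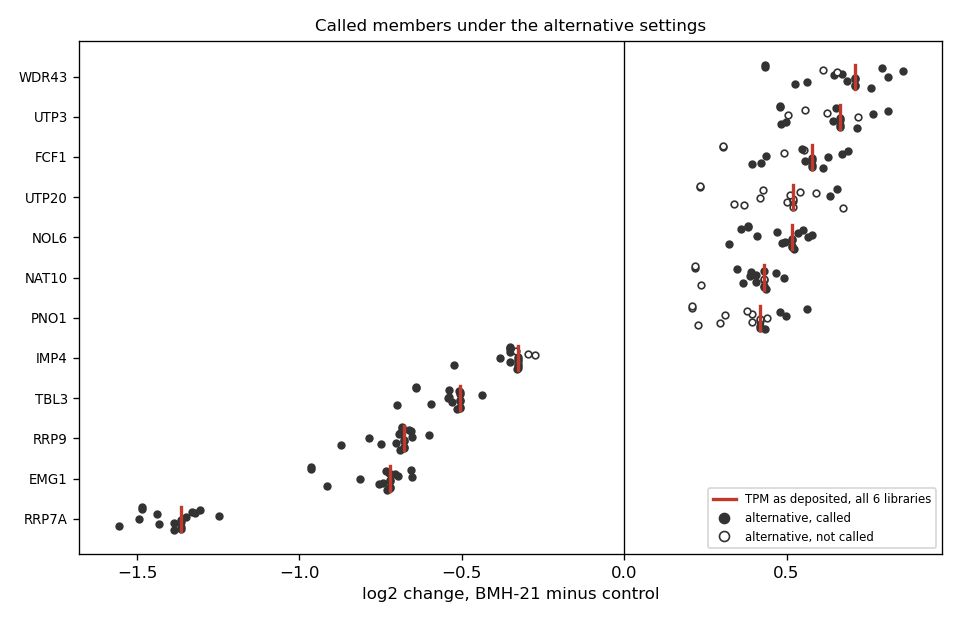
Log2 change of the 12 called factors with TPM as deposited (red line) and in each alternative (circles, filled where called). Circles of RRP7A, EMG1, RRP9, TBL3 and NOL6 are all filled, UTP20 and PNO1 are mostly open, and no circle crosses 0.

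Outside the 47, a list of other factors and U3 proteins of the same route was examined, of which 31 were tested. Of these 4 rose and 3 fell, against 23.3% and 12.9% of all genes tested, and the median log2 change was 0.10. With median-of-ratios scaling 3 were higher and 8 lower, against 15.1% and 19.1% of genes. Their median was then -0.04, against 0.02 over all genes. With GC and length trends removed 5 were higher and 8 lower, against 19.7% and 22.0% of genes. Their median was then -0.14, against 0.006 over all genes. CSNK1D, a casein kinase that phosphorylates LTV1 and BYSL, rose from 76.9 ± 8.17 to 130.8 ± 9.75 TPM (limma adjusted p = 0.00110). RIOK3, the third RIO kinase, rose from 8.18 ± 1.69 to 15.3 ± 1.95 TPM, the U3-associated factor RRP36 from 48.7 ± 1.81 to 72.9 ± 6.20 TPM, and NOL7 from 23.5 ± 3.06 to 32.0 ± 3.08 TPM (adjusted p = 0.00690, 0.00281 and 0.0327). The largest fall was that of FBL, fibrillarin, the 2′-O-methyltransferase of box C/D particles such as U3. FBL was at 554, 627 and 587 TPM under DMSO and 248, 240.2 and 237 TPM under BMH-21 (log2 change -1.28 ± 0.08, adjusted p = 2.03e-05). RRP9 of the same particle fell as well, as given above, while its core proteins NOP56, NOP58 and SNU13 were not called (adjusted p = 0.0816, 0.998 and 0.210). The treated libraries of NOP56 nevertheless lay below its controls. NOP56 was called lower in 5 of 17 alternatives, SNU13 in 2 and NOP58 in 0. TRMT112, which stabilises the 18S methyltransferases BUD23 and METTL5, fell from 884 ± 99.9 to 665 ± 25.0 TPM (adjusted p = 0.0161), and SLX9 from 55.4 ± 1.30 to 45.6 ± 3.25 TPM (0.0460). BUD23 and METTL5 were not called (adjusted p = 0.0610 and 0.710). BUD23, whose treated libraries lay below its controls, was called lower in 5 of 17 alternatives, and METTL5 higher in 1. AK6, the human Fap7, had its treated replicates 1 and 3 high and replicate 2 in the control range, as KRR1 did, with 11.6, 14.2 and 13.7 TPM under DMSO, 31.6, 11.7 and 43.4 TPM under BMH-21 and no call (adjusted p = 0.110).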

How the data were processed

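The authors deposited TPM per gene symbol for the 6 libraries. Per the labels' protocols, RNA was extracted with Trizol, depleted of ribosomal RNA with Ribo-Zero and copied with random hexamers, while another label names polyadenylated RNA. Per the submitters' processing notes, STAR and Salmon were used with GRCh38; the sources used here give no version, setting or annotation. Groups follow the treatment label. TPM was analysed as log2(TPM + 1) with limma 3.58.1 in R 4.3.3 (linear model per gene, empirical Bayes variance with a trend on the mean level, two-sided, Benjamini-Hochberg over 12481 genes with a mean of at least 1 TPM). The fit was also run on simulated data with independent normal noise for each gene. That setting leaves out the library deviations that varied with GC content, so it is no check of the calls against them. All 47 members are named; values in every library are given for called members and for the largest rise, largest fall and highest level of each role group, and for others where the libraries differ. AK6, NOP56, NOP58, SNU13, BUD23 and METTL5, which are not members, were named after their values were seen. Members, role groups, lists and motifs were chosen with earlier results of these data known. Promoters are from RefSeq (GRCh38.p14), positions, overlaps and GC content from GENCODE 29 (GRCh38). GC content was available for 99.9% of tested genes. The 17 alternatives cover pseudocount, filter, scaling, variance trend, replicate block, left-out libraries and, added after seeing the data, GC and length trends. Depth is unknown, so no counting intervals are given.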

Additional observations from a re-analysis of the deposited data

How the results depend on the processing

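Of 790 values of single members under an alternative, 724 stayed on their side of the threshold, 43 lost a call, 23 gained a call, and no called value changed sign; 66 uncalled values changed sign, in 22 members. Members called higher numbered 7 with TPM as deposited (23.3% of all genes) and 3 without a filter on low values (11.6%). They numbered 4 with median-of-ratios scaling (15.1%), 4 with the replicate block (16.1%) and 3 with GC and length trends removed with the block (15.6%). Leaving out a library, or both libraries numbered 2, gave 2 to 14. The 2 came without BMH-21 replicate 1 (13.4%) and without BMH-21 replicate 3 (14.0%). Without control replicate 1 there were 4 (22.7%), and without both number 2 libraries 14 (28.8%). The 14 were the 7 called with TPM as deposited and KRR1, LTV1, NOL11, UTP6, UTP15, WDR3 and WDR75. Members called lower numbered 5 (12.9% of all genes), against 9 with median-of-ratios scaling (19.1%) and 9 with GC and length trends removed (22.0%). The median log2 change of members was 0.09, against -0.0654 with median-of-ratios scaling and -0.0689 with GC and length trends removed, with or without the block. All genes called numbered 4519, and 2796 to 5845 with libraries left out, 2796 without BMH-21 replicate 1 and 2885 without BMH-21 replicate 3. Other factors called numbered 7, where 36.2% of all genes were called. With median-of-ratios scaling 11 were called (34.2%), with the block 4 (25.8%) and with GC and length trends removed 13 (41.7%). With libraries left out they numbered 4 to 13. The 4 came without control replicate 3 (28.7%), BMH-21 replicate 1 (22.5%) or BMH-21 replicate 3 (23.3%). Without both number 2 libraries 13 were called (46.4%). With median-of-ratios scaling 44.2% of all calls were higher, with quantile normalization 51.0% and with GC and length trends removed 47.1%, against 64.4% with TPM as deposited. The cause of these shifts was not tested. Whether same-numbered libraries were paired is not settled here. Their deviations from group means correlated at -0.04, -0.34 and -0.08 for numbers 1 to 3, and no library correlated best with its own number. With 3 libraries per group, and deviations that varied with GC content, these correlations cannot show or exclude a pairing. With the block 3223 genes were called, and IMP4, NAT10, PNO1 and UTP20 were not (adjusted p = 0.0788, 0.0542, 0.101 and 0.0831). With GC and length trends removed and the block, FCF1, NAT10, PNO1 and UTP20 were not called (0.0800, 0.102, 0.163 and 0.349). Depth, being unknown, limits the members with low TPM in a way that cannot be sized.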
